A study of Rattus norvegicus with 24 samples.

Results

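Genes that make, carry or break down D-amino acids and the amino acids next to them were examined in the frontal cortex of rats that had inhaled tungsten particles. The 7 genes, of 32883 reference genes in the tables, are Ddo, Dao, Srr, Phgdh, Psat1, Slc1a4 and Aspa, found by their names in each of the 24 deposited gene tables. Ddo was chosen by its measured values, because it is higher in every Low library than in every Control library, and the other 6 genes were listed with it for their place in the same metabolism. The 7 genes were chosen with earlier results of these data known. Since the Low and Control values of Ddo selected it, its levels are given as a description without a test. Of the 7 genes, 6 had a mean level high enough to be tested, while Dao did not.

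All animals were adult male Sprague-Dawley rats, with 8 libraries per group, and polyadenylated RNA was sequenced from stranded libraries. Per the labels, Control rats breathed 0 mg/m3 of tungsten, Low rats 5 mg/m3, and High rats 80 mg/m3. The labels name no genetic change or second agent in any group. The extraction text of the labels speaks of cell lines of the frontal cortex, while the methods name frontal cortex tissue and describe 24 subjects in groups of 8. The labels themselves do not tie each library to a separate rat.

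Most amino acids in tissues are in the L form, and the brain is known for holding the D forms of serine and aspartate as signalling molecules. D-serine is made from L-serine by serine racemase and acts at the glycine site of NMDA receptors, a class of glutamate receptors, while D-aspartate acts at their glutamate site. Both are cleared in peroxisomes by flavin enzymes, D-aspartate by D-aspartate oxidase (Ddo) and D-serine by D-amino acid oxidase (Dao). L-serine itself comes largely from astrocytes, which make it from a glycolytic intermediate through Phgdh and Psat1. Aspa, an enzyme of oligodendrocytes, releases L-aspartate from N-acetylaspartate.

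The stretches of 250 bases before the start sites of Ddo and Aspa are shown because these are the genes of the 7 whose Low and Control libraries did not overlap. They come from RefSeq on the GRCr8 assembly, where Ddo lies at chr20:45673327-45673576 on the plus strand and Aspa at chr10:58439038-58439287 on the minus strand, for the stretches printed. All 7 genes were matched in that table. Capitals mark the letters CCAAT in Ddo and TATAAA, read on either strand, in Aspa.
Ddo: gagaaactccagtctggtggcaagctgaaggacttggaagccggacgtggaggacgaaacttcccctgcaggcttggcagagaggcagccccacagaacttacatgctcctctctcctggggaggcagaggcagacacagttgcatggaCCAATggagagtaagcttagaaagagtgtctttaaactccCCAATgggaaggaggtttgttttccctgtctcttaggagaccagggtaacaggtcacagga
Aspa: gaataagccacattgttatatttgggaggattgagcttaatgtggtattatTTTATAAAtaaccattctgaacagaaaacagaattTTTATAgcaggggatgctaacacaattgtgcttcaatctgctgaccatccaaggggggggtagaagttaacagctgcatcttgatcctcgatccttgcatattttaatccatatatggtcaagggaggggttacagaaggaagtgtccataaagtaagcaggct
CCAAT began 101 and 61 bases before the start of Ddo, and CCAAT was found on either strand in 34% of 33469 promoters of the same length. TATAAA was found in 12.9% of them, and in Aspa it began 197 bases before the start on the forward strand, with matches on the reverse strand at 199 and 164 bases, the one at 199 overlapping the forward match. GGGCGG (30.5% of promoters), CACGTG (5.59%) and TGACTCA (4.05%) were also searched on both strands and were not found in these stretches. The GC content was 53.6% for Ddo and 39.2% for Aspa, beside a median of 51.2% over all promoters. These matches describe letters and do not show that a factor binds there.

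Levels are given as scaled coverage. Coverage is the mean read depth per base of a gene, so that genes of different length can be set side by side, and it was divided by the summed coverage of all reference genes in the library and multiplied by 1000000. In units of 1000000, that sum was 1.64 to 3.07 over the 24 libraries. The methods give a planned read depth common to all samples, but the tables carry no read counts per gene, so no counting error can be given. Tbr1, a marker of cortical glutamatergic neurons, was present in every library at 20.3 to 68.3, and the 4 markers of cerebellum summed to between 0.275 and 2.68. Control library 56 and Low libraries 57 to 62 stood apart by a share of minus-strand mitochondrial tRNA genes of 0.545% to 0.81%, against 0.00849% to 0.0155% in the other 17 libraries. Because 6 of these 7 libraries are Low, values without them are given for Ddo, Dao, the genes that passed the threshold and members whose direction changed.

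Ddo was higher in the Low group than in Control, and High lay between them. Its scaled coverage in Control had a lowest value of 6.63, a median of 8.35 and a highest value of 10.8. In Low it ranged from 12.7 through a median of 14.5 to 18.5, and in High from 4.13 through 10.5 to 15.2. Every Low library was thus above every Control library, whereas the High libraries spread over a range that took in much of both groups. The mean was 8.63 ± 1.52 for Control, 15.2 ± 2.32 for Low, with 10.2 ± 3.68 for High (SD, n = 8 each). The ratio of the means was 1.76 for Low over Control and 1.18 for High over Control.

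**Figure D1:**
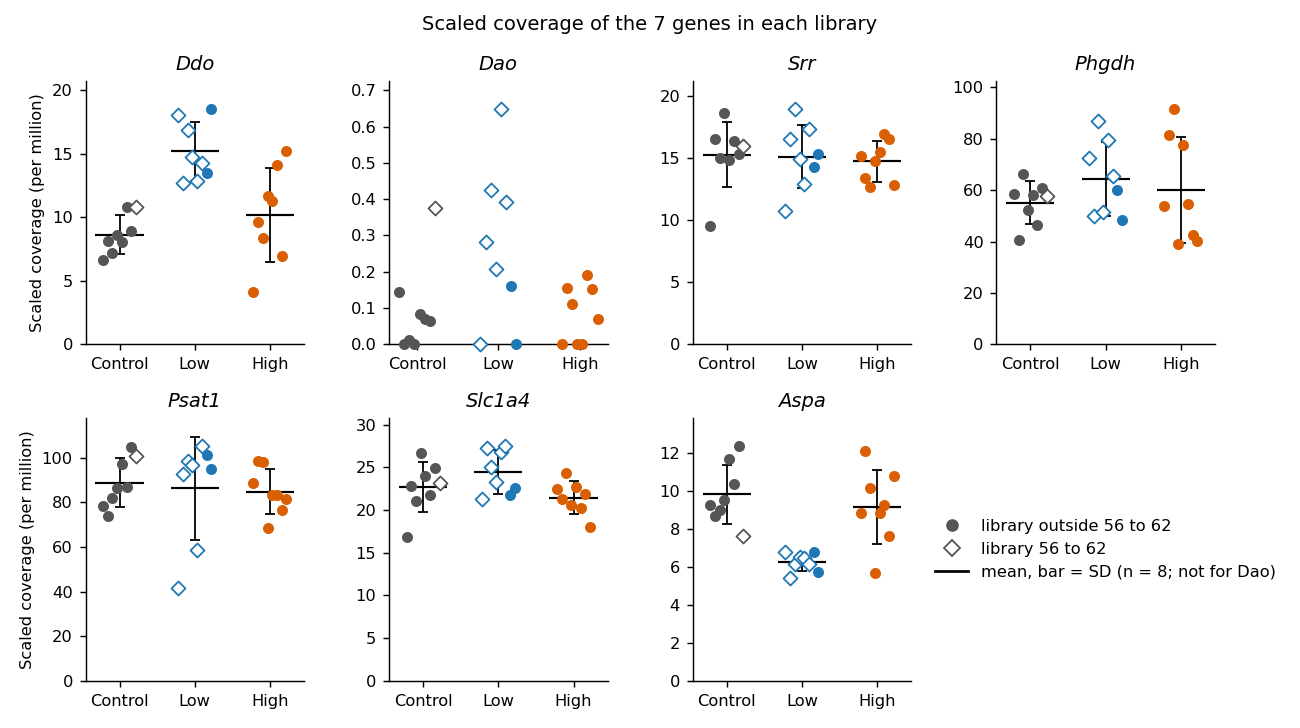
Scaled coverage (y axis, as a part of 1000000 of the summed coverage of reference genes) of each of the 7 genes in the Control, Low and High libraries. Each point is 1 library, diamonds are libraries 56 to 62, lines are group means and bars are SD (n = 8, left out for Dao); every Low library is above every Control library for Ddo and below every Control library for Aspa.

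The High group was the most variable for Ddo, with a coefficient of variation of 36.2%, against 17.6% in Control and 15.3% in Low. Of the 8 High libraries, 4 were above all Control libraries and 1 was below all of them. Of the 8 Low libraries, 3 were above all High libraries. The highest High library was 3.69 times the lowest, a wider span than the 1.63 times in Control.

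The gap between Low and Control that selected Ddo was as follows. The lowest Low library was 1.18 times the highest Control library for Ddo. Low lay above Control without overlap in 13 of 15644 genes tested, or 0.0831%. Neighbours were listed only among genes with a symbol, leaving out clone names and names starting with LOC or RGD, so not all 13 are named. Kdelr2 at 1.04, Cd24 at 1.03, Ptma at 1.02, and Rpl9 and Nrsn1, both at 1.01, were just inside the rule. Tuba1c at 0.999, Pla2g7 at 0.993 and Ifit2 at 0.992 were just outside.

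On the log2 scale of scaled coverage + 1, Ddo differed by 0.75 between Low and Control (SE 0.17), by 0.15 between High and Control (SE 0.17) and by 0.60 between Low and High (SE 0.17). The comparisons share libraries, so these differences are not independent of each other. Outside libraries 56 to 62, the 2 remaining Low libraries were at 13.5 and 18.5, and the 7 remaining Control libraries ran from 6.63 to 10.8. The difference between Low and Control was 0.86 (SE 0.31) without libraries 56 to 62 and 0.71 (SE 0.22) with them as a term in the model. Neither sign could change, since Ddo was chosen for Low libraries above all Control libraries. Libraries 54 and 56 held the highest Control values of Ddo, both at 10.8.

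**Figure D2:**
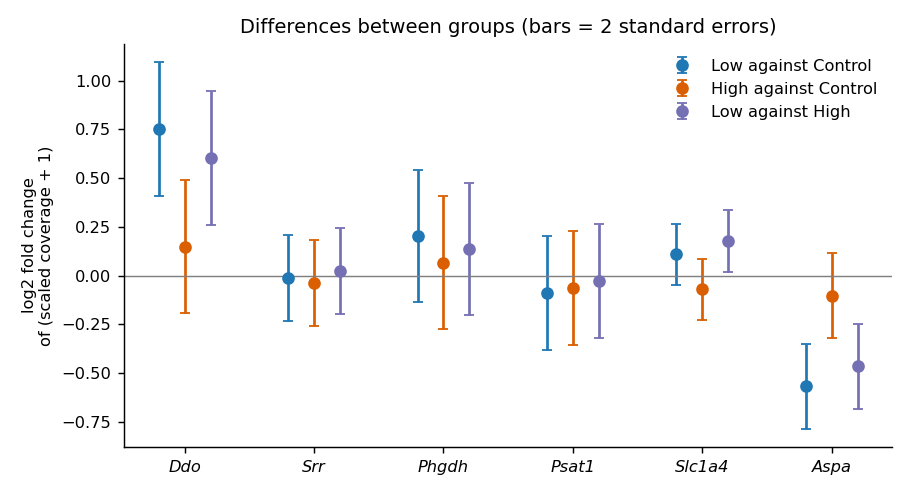
Difference in log2 of (scaled coverage + 1) on the y axis for 6 genes above the filter on low values, in 3 comparisons shown by colour. No test was made for Ddo, whose Low and Control values selected it. Points are estimates from 1 model of all 24 libraries and bars are 2 standard errors either way; Ddo lies at 0.75 and Aspa at -0.57 for Low against Control, and the other genes lie between -0.09 and 0.20 in that comparison.

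The tables of the groups were not made alike, and this bears on how far the Ddo values can be compared. Control and High tables also list loci assembled from the reads of each library, and Low tables list none, so this property and the Low exposure cannot be told apart. Control library 56 listed 159573 such loci, against 46334 to 66427 in the other Control tables. A locus matching in strand, start and end was listed there for 73.7% of genes tested, against 51.1% to 54.3% in the other Control tables. A locus with the same strand, start and end as Ddo was listed in 8 of 8 Control and 7 of 8 High tables. Its coverage was between 0.737 and 1 times that of the reference gene in Control and between 0.905 and 1 times in High. High library 69, which had no such locus, had a Ddo level of 11.3, inside the range of the High group. A second listing of this kind was common: Slc1a4 and Psat1 had it in 8 of 8 Control tables, and 4942 of the genes tested had it in all 8. Over those 4942 genes the median difference between Low and Control was 0.0862 on the log2 scale, and over the 2762 genes with it in no Control table it was -0.0162. Loci on the opposite strand overlapped Ddo in 8 of 8 Control and 8 of 8 High tables. Their coverage as deposited reached 6.77 in Control and 9.11 in High. That of Ddo itself was 13.2 to 21.9 in Control and 7.49 to 34.6 in High. The part of the loci on either strand in the Ddo values was not tested further.

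Dao, which clears D-serine, was near the limit of what the tables list. It was listed at 0 in 2 Control, 2 Low and 3 High libraries. Its scaled coverage reached 0.377 in Control, 0.648 in Low and 0.192 in High. These ranges overlapped, and 1 Control library, number 56, held the highest Control value. Outside libraries 56 to 62, Low libraries 63 and 64 were at 0.160 and 0, and the 7 remaining Control libraries were at 0 to 0.143. The filter on low values left Dao out, and in a model without that filter its difference between Low and Control was 0.20 on the log2 scale (adjusted p = 0.25, limma with Benjamini-Hochberg adjustment). Loci on the opposite strand overlapped Dao in 6 of 8 Control and 8 of 8 High tables. Their coverage as deposited reached 4.93 in Control and 4.66 in High, while that of Dao itself reached 0.717 and 0.473.

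Srr encodes serine racemase, which makes D-serine, and its scaled coverage overlapped across the groups. Its scaled coverage was 9.52 to 18.7 across Control libraries (median 15.7), 10.8 to 19.0 across Low libraries (median 15.1), and 12.7 to 17.0 across High libraries (median 15.0). The difference between Low and Control was -0.01 on the log2 scale, with an interval of 2 standard errors either way from -0.23 to 0.21 (adjusted p = 0.97, limma, Benjamini-Hochberg). By the FPKM column divided by its sum, the difference was 0.26 (adjusted p = 0.22, limma, Benjamini-Hochberg), so its direction depended on the column. Srr passed the threshold by the TPM column as deposited, at 0.39 between Low and Control (adjusted p = 0.027) and 0.43 between Low and High (adjusted p = 0.015), and by the FPKM column, at 0.74 (adjusted p = 2.2e-07) and 0.78 (adjusted p = 1.0e-07), all by limma with Benjamini-Hochberg adjustment. The FPKM column as deposited had medians over all genes of 0.53 and 0.52 in these comparisons, and the TPM column 0.17 and 0.15. The end of Srr overlaps Tsr1 on the opposite strand over 1381 bases. The kit marks strand, but the sources used here do not say whether the quantification used it.

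Phgdh and Psat1 encode successive enzymes of L-serine synthesis, and both were far more abundant per base than Ddo. Phgdh was 40.4 to 66.3 across Control libraries (median 57.8), 48.5 to 86.9 across Low libraries (median 62.7), and 39.0 to 91.5 across High libraries (median 54.3). High held both the lowest and the highest Phgdh library of the study. The Phgdh difference between Low and Control was 0.20 on the log2 scale, with an interval from -0.13 to 0.54 (adjusted p = 0.55, limma, Benjamini-Hochberg). It was -0.0041 without libraries 56 to 62.

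Psat1 was 73.8 to 104.7 across Control libraries (median 86.8), 41.8 to 105.3 across Low libraries (median 95.8), and 68.4 to 98.4 across High libraries (median 83.5). Low libraries 57 and 61, at 41.8 and 58.5, were below every other library, and the remaining 6 Low libraries were at 92.9 or more. Between Low and Control the Psat1 difference was -0.09, with an interval from -0.38 to 0.20 (adjusted p = 0.78, limma, Benjamini-Hochberg). Without library 57 it was 0.05, so 1 library set the direction, and without libraries 56 to 62 it was 0.18 (adjusted p = 0.80).

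Slc1a4 encodes a neutral amino acid exchanger that carries serine. Its scaled coverage was 16.9 to 26.7 across Control libraries (median 23), 21.2 to 27.5 across Low libraries (median 24.1), and 18.0 to 24.4 across High libraries (median 21.5). Of the Low libraries, 3 were above all Control and 4 above all High libraries, and the rest overlapped. The difference was 0.11 between Low and Control (interval -0.05 to 0.27, adjusted p = 0.49) and 0.18 between Low and High (interval 0.02 to 0.34, adjusted p = 0.14) by limma with Benjamini-Hochberg adjustment. Without libraries 56 to 62 the former was -0.0113.

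Aspa, the aspartoacylase that splits N-acetylaspartate, was lower in Low by its coverage, but not by the other columns. Its scaled coverage was 7.65 to 12.4 across Control libraries (median 9.40), 5.41 to 6.80 across Low libraries (median 6.33), and 5.67 to 12.1 across High libraries (median 9.07). Every Low library was below every Control library, and all but 1 of the High libraries were above every Low library. The mean was 9.83 ± 1.58 for Control, 6.27 ± 0.49 for Low, with 9.18 ± 1.97 for High (SD, n = 8 each). In bulk tissue, fewer cells of a type and less RNA per cell cannot be told apart.

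By limma with Benjamini-Hochberg adjustment, Aspa fell by 0.57 on the log2 scale between Low and Control (SE 0.11, adjusted p = 0.0012) and was lower in Low than in High by a log2 difference of -0.46 (SE 0.11, adjusted p = 0.0060). Its difference between High and Control was -0.10 (adjusted p = 0.999). Outside libraries 56 to 62 both Low libraries, at 5.76 and 6.80, were still below the lowest Control library at 8.71, and the difference was -0.61 (SE 0.19, adjusted p = 0.18). With those libraries as a term it was -0.48 (adjusted p = 0.085). The standard error with the term was 0.14. Why the call was lost in these fits was not tested.

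The direction of the Aspa difference turned with the column. As FPKM divided by its sum in each library, Aspa was 12.5 to 29.1 across Control libraries (median 23.4), 20.3 to 29.8 across Low libraries (median 27.1), and 13.3 to 25.6 across High libraries (median 16.3). On this scale Low overlapped Control and was not below it. The log2 difference was 0.18 between Low and Control (adjusted p = 0.49) and 0.54 between Low and High (adjusted p = 0.0075) by limma with Benjamini-Hochberg adjustment.

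**Figure D3:**
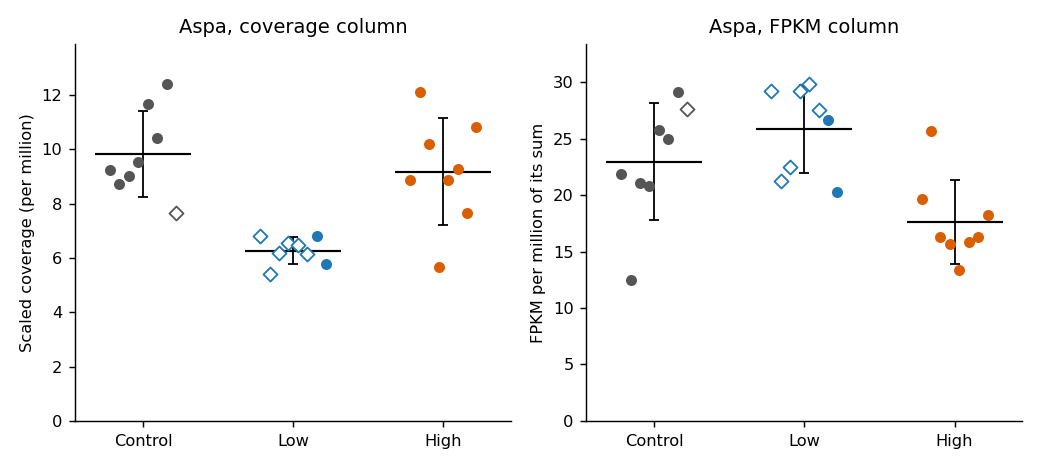
Aspa in each library by coverage (left) and by FPKM (right), each as a part of 1000000 of its sum in the library, in Control, Low and High. Points are libraries, diamonds are libraries 56 to 62, lines are means and bars SD (n = 8); Low lies below Control on the left, and overlaps it on the right.

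The ratio of the columns differed between genes. In each library, coverage and FPKM of most genes stood in 1 fixed ratio, with 75.6% to 78.2% of genes within 0.01 of it. Ddo, Phgdh and Slc1a4 kept that ratio in all 24 libraries, and Dao in the 17 libraries where it was above 0. Relative to it, Aspa stood at 0.261 to 0.661 across Control libraries (median 0.406), at 0.203 to 0.264 across Low libraries (median 0.226), and at 0.342 to 0.631 across High libraries (median 0.501). Control library 56, at 0.261, was within the Low range, and Low libraries 63 and 64, which are not among libraries 56 to 62, were at 0.236 and 0.264. The relative ratio of Srr was 0.579 to 0.703 across Low libraries, beside 0.669 to 0.849 across Control and 0.799 to 0.935 across High libraries. That of Psat1 was 0.597 to 0.730 across Low libraries, beside 0.736 to 0.860 across Control and 0.728 to 0.987 across High libraries. What sets this ratio was not tested.

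**Figure D4:**
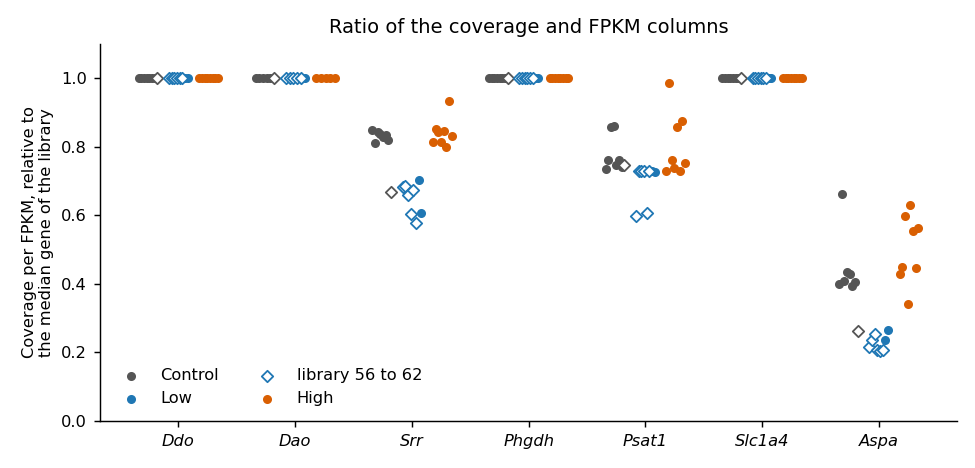
Coverage divided by FPKM on the y axis, relative to the usual ratio of the same library, for the 7 genes on the x axis and the 3 groups by colour, with diamonds for libraries 56 to 62. Ddo, Dao, Phgdh and Slc1a4 sit at 1 in each library where they were above 0, and Aspa sits lowest, at 0.203 to 0.264 in Low.

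Assembled loci also differed for Aspa. A same-strand locus overlapped it in all 16 Control and High tables, but shared its start and end in only 2 Control and 2 High tables, where its coverage was 1.54 to 1.76 times that of the reference gene. Aspa overlaps Trpv3 over 21136 bases and Spata22 over 13111 bases, both on the opposite strand and with mean scaled coverage of 0.960 and 0.108. No other reference gene overlapped Ddo, Dao, Phgdh, Psat1 or Slc1a4.

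Among the 5 genes tested besides Ddo, 1 passed the threshold between Low and Control, 0 between High and Control and 1 between Low and High, and in both cases it was Aspa. Over all genes tested, 6.11% passed between Low and Control (4.88% were lower in Low), 0% between High and Control, and 11.7% between Low and High (6.39% lower and 5.3% higher in Low). The 0 of 15644 genes between High and Control came from limma, with 330 genes at an unadjusted p under 0.05, and exact Wilcoxon rank-sum tests also gave 0, with 887. Low lay below Control without overlap in 1.44% of genes. Members are few, so these shares are a background and no list result is read from them.

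By scaled coverage the order of mean levels in Control was Psat1, Phgdh, Slc1a4, Srr, Aspa, Ddo and Dao. The ranges of Aspa and Ddo overlapped in Control, as did those of Slc1a4 and Srr, while those of Psat1 and Phgdh did not. In Low, by scaled coverage, Ddo moved up to the level of Srr, with means of 15.2 and 15.1 and overlapping ranges. It lay above Aspa there without overlap. In High, Ddo and Aspa overlapped again. By FPKM divided by its sum, Aspa had a mean of 23 in Control, close to Slc1a4 at 21.5 and above Ddo at 8.17. On that scale the Low means were 21.8 for Srr and 14.1 for Ddo. Aspa in Low, at 20.3 to 29.8, lay above Ddo, at 11.8 to 17.2, so the order in Low depended on the column.

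The genes whose levels varied most like Ddo within groups were not members of the metabolism. Likeness was the Pearson correlation of log2 values after each group mean was subtracted, over 24 libraries that share a sequencing protocol and a scaling. Among genes with a symbol, the highest values were for Tox (0.835), which encodes a nuclear HMG-box protein, and Sema3c (0.791), a secreted semaphorin. Next came Cd24 (0.735), a small surface glycoprotein, Ldb2 (0.735), a LIM-domain binding cofactor, and Dennd1c (0.734). The median over 15643 genes was 0.0855 and the 99th percentile 0.536. Outside libraries 56 to 62, over 17 libraries, the values were 0.865 for Tox, 0.813 for Sema3c, 0.716 for Cd24, 0.730 for Ldb2 and 0.811 for Dennd1c. Cd24 starts 404099 bases from Ddo on the same chromosome.

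Between groups these genes did not all follow Ddo. Tox had a mean scaled coverage of 16.2 ± 3.59 for Control, 22.8 ± 3.63 for Low, with 16.7 ± 5.07 for High, and Sema3c had 17.7 ± 3.97, 23.3 ± 3.34 and 17.7 ± 4.65 (SD, n = 8 each). By limma with Benjamini-Hochberg adjustment, Cd24 was higher in Low than in Control by 0.33 on the log2 scale (adjusted p = 0.039) and higher in Low than in High by 0.32 (adjusted p = 0.034). Without libraries 56 to 62 these differences were 0.32 (adjusted p = 0.70) and 0.28 (adjusted p = 0.52). The calls were lost in 4 and 5 of 12 alternatives, and in 11 and 7 of 24 fits that left out 1 library (49, 50, 51, 53, 55, 57, 58, 59, 60, 62 or 64, and 59, 62, 65, 66, 67, 71 or 72), with differences of 0.30 to 0.36 and 0.25 to 0.37. Tox differed by 0.48 between Low and Control (adjusted p = 0.082), Sema3c by 0.39 (adjusted p = 0.13), Ldb2 by 0.26 (adjusted p = 0.24) and Dennd1c by -0.03 (adjusted p = 0.90), none past the threshold.

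**Figure D5:**
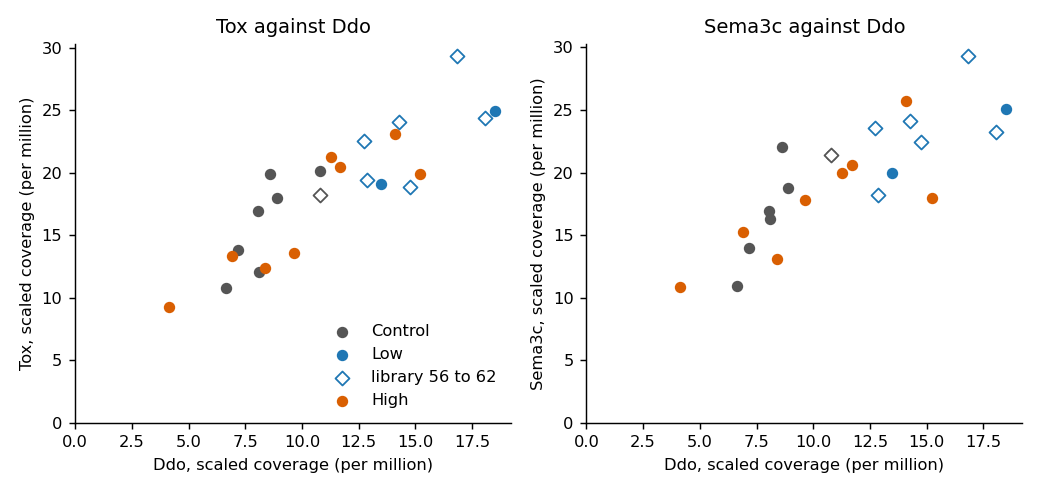
Scaled coverage of Tox (left) and Sema3c (right) on the y axes against Ddo on the x axes, both on the same scale, with 1 point per library, colours for the 3 groups and diamonds for libraries 56 to 62. The points climb together within groups, with correlations of within-group deviations of 0.835 and 0.791 over 24 libraries.

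With the other members, Ddo had correlations of within-group deviations of 0.0791 (Srr), -0.118 (Phgdh), -0.0777 (Psat1), -0.231 (Slc1a4) and 0.0547 (Aspa) over the 24 libraries. Srr varied with Slc1a4 (0.616) and Psat1 (0.47), and Phgdh with Aspa (0.451). These are descriptions over libraries whose tables were not all made alike.

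Markers of cell types and neighbouring tissue were set beside these values. Summed over 4 markers of striatum (Drd2, Ppp1r1b, Adora2a and Rgs9), scaled coverage ran from 270 to 589 across Control, 199 to 467 across Low, and 135 to 979 across High libraries, and its within-group deviations had a correlation of -0.655 with those of Ddo. All 4 markers were tested, all 4 had a negative difference between Low and Control (median -0.62), and none passed the threshold. Their part in the Ddo values was not tested. Oligodendrocyte markers, 8 of 8 tested, summed to 3974 to 5749 across Control, 4253 to 8138 across Low, and 2542 to 6424 across High libraries, with a correlation of 0.795 with Aspa. All 8 had a positive difference between Low and Control (median 0.10) and none passed, so Aspa by coverage and these markers did not share a sign in that comparison. Astrocyte markers, 6 of 6 tested, summed to 775 to 1755 across Control, 898 to 1639 across Low, and 878 to 1409 across High libraries, with a correlation of 0.792 with Slc1a4, 0.634 with Srr and 0.535 with Psat1. Such values were not particular to astrocytes. Slc1a4 had 0.610 with the microglia sum, 0.603 with meninges and 0.534 with endothelium. Srr had 0.536 with neurons and -0.573 with choroid plexus, and Psat1 had 0.516 with microglia. Over all genes tested the median difference between Low and Control was 0.06.

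The other lists were tested in the same model, for neurons (6 of 6 genes tested), cortical glutamatergic neurons (4 of 4), microglia (5 of 5), endothelium (2 of 4), choroid plexus (2 of 4), meninges (4 of 4) and blood (3 of 3). None of these genes passed between Low and Control or High and Control, and 1 endothelial gene, Slco1a4, passed between Low and High. The shares over all genes tested were 6.11%, 0% and 11.7% in these comparisons. The 4 meninges markers were lower in Low than in Control (median -0.52) without passing. Phgdh had correlations of 0.608 with the meninges sum and -0.601 with that of cortical glutamatergic neurons, over 24 libraries.

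The wider pathway was measured through 64 further genes in 6 lists, of which 57 were tested. Between Low and Control 47 differences were positive and 10 negative, and none passed. Between High and Control 25 were positive and 32 negative, and none passed. Between Low and High 47 were positive, of which 2 passed, and 10 were negative. Over all genes tested, 6.11% passed between Low and Control, 0% between High and Control and 11.7% between Low and High (5.3% higher in Low). The median of all genes was itself 0.06, -0.03 and 0.09 in these comparisons, and without scaling of the libraries it moved to 0.03, 0.14 and -0.12.

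Serine synthesis and use had 9 of 10 genes tested, with medians of 0.14 (Low against Control), 0.03 (High against Control) and 0.10 (Low against High). Its most abundant genes were Cbs, which joins serine to homocysteine, at 38.6 ± 2.69 in Control and 39.3 ± 4.29 in Low, and Sptlc1, a subunit of the enzyme that starts sphingolipid synthesis from serine, at 25.8 ± 1.82 and 28 ± 1.94 (SD, n = 8 each). Neither passed in any comparison.

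Serine and glycine transport had 8 of 10 genes tested, with medians of 0.07, -0.05 and 0.13 in the same order. Slc38a2, a sodium-coupled neutral amino acid transporter, had 65.7 ± 9.71 for Control, 75.5 ± 10.8 for Low, with 59.7 ± 6.40 for High (SD, n = 8 each). It was higher in Low than in High by 0.33 on the log2 scale (SE 0.09, adjusted p = 0.022, limma, Benjamini-Hochberg), and its difference between Low and Control was 0.20 (adjusted p = 0.25). Without Low library 62 the difference between Low and High was 0.28 (adjusted p = 0.057), and without libraries 56 to 62 it was 0.46 (adjusted p = 0.17). The call was lost in 4 of 12 alternatives. Slc3a2, the heavy chain of several amino acid exchangers, was at 107.3 ± 10.6 in Control and 114.2 ± 9.07 in Low and did not pass.

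Glycine cleavage, the mitochondrial system that breaks down glycine, had 4 of 4 genes tested, with medians of 0.02, -0.03 and 0.07. Dld, its dihydrolipoamide dehydrogenase, which other mitochondrial complexes also use, had 101.9 ± 6.26 for Control, 113.4 ± 9.96 for Low, with 100.2 ± 6.39 for High (SD, n = 8 each). It was higher in Low than in High by 0.17 (SE 0.06, adjusted p = 0.044, limma, Benjamini-Hochberg). That call was lost in 12 of 24 fits that left out 1 library (54, 55, 57, 58, 59, 62, 64, 65, 66, 67, 69 or 72), with adjusted p of 0.0503 to 0.101, and in 6 of 12 alternatives. The difference was -0.04 without scaling of the libraries, and 0.14 (adjusted p = 0.53) without libraries 56 to 62. Gcsh, the lipoyl carrier protein of the system, was at 54.4 ± 5.72 in Control and 55.3 ± 5.38 in Low and did not pass.

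Aspartate and N-acetylaspartate genes, 13 of 14 tested, had medians of 0.08, -0.03 and 0.07. Nat8l, which makes the N-acetylaspartate that Aspa splits, was at 222.3 ± 41.1 for Control, 235.9 ± 35.2 for Low, with 198.6 ± 48.1 for High. Got1, the cytosolic aspartate aminotransferase, was at 293.1 ± 23.1, 336.1 ± 45.2 and 305.9 ± 30.8 (SD, n = 8 each). Neither passed in any comparison.

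Genes of peroxisome import and peroxide removal, 16 of 18 tested, bear on the organelle that holds Ddo and Dao. Their medians were 0.09, -0.01 and 0.10, with 14 of 16 positive between Low and Control and none past the threshold. Catalase (Cat), which removes the hydrogen peroxide that both oxidases give off, was at 39.3 ± 3.95 for Control, 42.9 ± 3.58 for Low, with 40.1 ± 3.33 for High. Pex14, a docking protein of peroxisomal import, was at 45.2 ± 3.54, 48.0 ± 6.73 and 44.0 ± 2.85 (SD, n = 8 each).

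Partners of serine racemase and enzymes that repair D residues, 7 of 8 tested, had medians of 0.09, -0.02 and 0.08, and none passed. Pcmt1, which repairs isomerised aspartate residues in proteins, was at 191.8 ± 25.0 in Control and 208.2 ± 22.4 in Low, and Dtd1, a D-aminoacyl-tRNA deacylase, at 82.5 ± 7.80 and 90.1 ± 9.13 (SD, n = 8 each).

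In the tables, Ddo (ENSRNOG00000000582) lies at chr20:48739639-48758905, Dao (ENSRNOG00000054962) at chr12:48354196-48365784, Srr (ENSRNOG00000002991) at chr10:61756138-61772293 and Phgdh (ENSRNOG00000019328) at chr2:200484246-200513564. Psat1 (ENSRNOG00000013971) lies at chr1:233124092-233145941, Slc1a4 (ENSRNOG00000005248) at chr14:104581190-104612597 and Aspa (ENSRNOG00000019659) at chr10:59839852-59892960, and all 7 are on the minus strand. The submitters' processing notes name mRatBN7.2, but 7680 genes in the tables carry AABR07 names and the last gene of chromosome 1 ends at 282724300, so the build of these positions was not settled and they were not joined to GRCr8. Ddo is on the minus strand in these positions and on the plus strand in the GRCr8 stretch printed above.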

How the data were processed

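RNA-Seq of rat frontal cortex was analysed from 24 deposited tables, 8 per group, with groups taken from the labels. Per the labels, reads were handled with FastQC, Trimmomatic, TopHat2 and StringTie on mRatBN7.2, with versions not given. The authors deposited 3 values per gene: coverage (signal, mean depth per base, not scaled for depth), FPKM (scaled by length and library) and TPM. The deposited TPM of Control and High tables is used as a score, since assembled loci and reference genes together sum to more than 1000000 there. The tables hold no counts, so count models were not used.

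Each library's coverage was scaled to a sum of 1000000 over reference genes. A mean of 1 or more was required, and limma 3.58.1 (trend, robust, R 4.3.3) was run on log2(value + 1) with all 3 groups, two-sided, Benjamini-Hochberg adjusted over 15644 genes, threshold 0.05. A fold on this scale understates the change of low genes. The limma fit and the exact Wilcoxon test were each tested on simulated data. Scaling and the filter on low values were not part of those tests. Other work used Python 3.11.15 with scipy 1.17.1, pandas 2.3.3, numpy 2.4.6 and matplotlib 3.10.9. Alternatives were a pseudocount of 0.1, a minimum mean of 5 or none, median-of-ratios scaling or none, TPM or FPKM in place of coverage, a fit of only the groups compared, libraries 56 to 62 as a term or left out, exact Wilcoxon rank-sum tests and each library left out. FPKM divided by its sum was added after seeing the data.

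Named genes are the 7 members, the genes past the threshold and the 2 most abundant of each pathway list, and genes overlapping a member. The 5 genes with a symbol most correlated with Ddo within groups are named as well. The members and lists were chosen with earlier results of these data known. Kdelr2, Ptma, Rpl9, Nrsn1, Tuba1c, Pla2g7, Ifit2 and Slco1a4 were named after their values were seen. Cth, Pex19 and Pecam1 were not found by name. Values of 1 marker gene are not reported here, while sums and counts over its list include it.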

Additional observations from a re-analysis of the deposited data

Results flagged for a closer look

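Each gene and group of 8 was searched for a library far from the others, over 21 sets, of which about 1.05 would be marked by chance, and 2 were. Dao in Control library 56 was at 0.377 scaled coverage, while the other Control libraries were at 0 to 0.143. Srr in Control library 49 was at 9.52, while the other Control libraries were at 14.9 to 18.7.

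The Low and High groups were tested against each other by limma with Benjamini-Hochberg adjustment. Exposure and the lack of assembled loci in the Low tables cannot be told apart in this comparison. Aspa differed by -0.46 on the log2 scale (adjusted p = 0.0060). By FPKM divided by its sum, the same comparison gave 0.54. Slc38a2 differed by 0.33 (adjusted p = 0.022), a call lost in 4 of 12 alternatives. Dld differed by 0.17 (adjusted p = 0.044), a call lost in 6 of 12 alternatives and with the sign changed in 1 more. No explanation of these values was tested.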

How the results depend on the processing

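No paired analysis was possible because the library numbers 49 to 72 are unique and the groups share none. With each of 24 libraries left out, Ddo gave 0.71 to 0.80 on the log2 scale for Low against Control, 0.06 to 0.30 for High against Control and 0.45 to 0.69 for Low against High. The first sign could not change there, since Ddo was chosen for Low libraries above all Control libraries.

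Genes past the threshold between Low and Control numbered 956 (192 higher, 764 lower), and 556 with a minimum mean of 5, 12393 by FPKM, 3952 by TPM, 566 with only the groups compared, 361 with libraries 56 to 62 as a term, 327 without them, 1847 by FPKM divided by its sum and 372 by exact Wilcoxon tests. Without scaling, the split was 56 higher and 705 lower, and with median-of-ratios scaling 154 and 931. Between Low and High they numbered 1828 (829 higher, 999 lower), and 1192, 12410, 3927, 354 (term), 341 (without libraries 56 to 62) and 1147 (Wilcoxon). The split was 108 and 1262 without scaling and 370 and 1286 with median-of-ratios scaling. Leaving out 1 library gave 675 to 1229 and 1272 to 2677.

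Differences that changed sign follow, on the log2 scale. By the FPKM column, Low against Control gave 0.74 (Srr), 0.57 (Psat1) and 0.67 (Aspa), and Low against High gave 0.63 (Psat1) and 0.95 (Aspa), where the median of all genes was 0.53 and 0.52. By the TPM column these were 0.39, 0.16 and 0.31, then 0.22 and 0.61. By FPKM divided by its sum they were 0.26, 0.0355 and 0.18, then 0.14 and 0.54. Without scaling, High against Control gave 0.14 (Srr), 0.12 (Psat1), 0.11 (Slc1a4) and 0.0668 (Aspa), and Low against High gave -0.19 (Srr), -0.0779 (Phgdh), -0.031 (Slc1a4) and -0.0432 (Dld). Median-of-ratios scaling gave -0.065 for Srr, Low against High. Without libraries 56 to 62, Low against Control gave -0.0041 (Phgdh), 0.18 (Psat1) and -0.0113 (Slc1a4), and Low against High gave -0.0825 (Phgdh) and 0.22 (Psat1). With them as a term, Low against High gave -0.0084 (Srr), -0.026 (Phgdh) and 0.0666 (Psat1). Leaving out 1 library gave -0.0984 to 0.0519, -0.12 to 0.0048 and -0.0203 to 0.0885 for Srr in the 3 comparisons, -0.0285 to 0.14 for Phgdh in High against Control, and -0.14 to 0.048 (Low against Control) and -0.0745 to 0.11 (Low against High) for Psat1. The sign changed without library 50, 52, 54, 56, 57 or 61 (Srr, Low against Control), 52 (Srr, High against Control), 59, 62 or 67 (Srr, Low against High), 66 or 67 (Phgdh), 57 (Psat1, Low against Control) and 57, 61, 66 or 67 (Psat1, Low against High). The cause was not tested.

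Without counts per gene, the counting error of low genes such as Dao is not known. The Aspa call between Low and High was also lost by the Wilcoxon test (adjusted p = 0.062), without libraries 56 to 62 (0.38) and with them as a term (0.30). The Slc38a2 call was lost without scaling (0.86), with libraries 56 to 62 as a term (0.14) or left out (0.17) and by the Wilcoxon test (0.062). The Dld call was lost with median-of-ratios scaling (0.48), only the groups compared (0.061), the term (0.39), those libraries left out (0.53), FPKM divided by its sum (0.085) and the Wilcoxon test (0.051). The Cd24 calls were lost without scaling, with median-of-ratios scaling, with the term and without those libraries, and between Low and High also by the Wilcoxon test (0.13). Values in parentheses are adjusted p.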
